A study of Homo sapiens with 30 samples.

Results

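The Iroquois homeobox genes of the human genome lie in 2 clusters of 3 genes, and open chromatin around all 6 was followed here through the first 4 days of neural differentiation. The IRXA cluster on chromosome 5 holds IRX4, IRX2 and IRX1. The IRXB cluster on chromosome 16 holds IRX3, IRX5 and IRX6. Members were the peaks of each list that overlapped the GRCh38 body of an IRX gene extended by 100 kb on each side. Peaks of the 10 lists were merged where they shared at least 1 bp, and a merged region counted as open in each list with a peak in it. This gave 286 regions out of 493444 on chromosomes 1 to 22, X and Y, with 166 regions in IRXA and 120 in IRXB. The 6 windows did not touch each other. On chromosome 5 they lay 648 kb (IRX4 to IRX2) and 644 kb (IRX2 to IRX1) apart, and on chromosome 16 they lay 444 kb (IRX3 to IRX5) and 190.0 kb (IRX5 to IRX6) apart.

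Iroquois proteins are homeodomain transcription factors of the TALE class, whose homeodomain carries 3 extra amino acids in a loop. In vertebrate embryos the genes help to set up the neural plate and to divide it along its length. Irx3 and its relatives are known for expression behind the future zona limitans of the diencephalon, where they oppose the anterior factor Six3, and for later roles in midbrain, hindbrain and spinal cord. Both clusters arose by duplication, so that IRX1 is the counterpart of IRX3, IRX2 of IRX5 and IRX4 of IRX6.

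Accessible DNA was mapped by OmniATAC-seq, where the transposase Tn5 cuts open chromatin, in wild-type H1 cells, a single human embryonic stem cell line. The labels describe 30 libraries in 10 groups of 3, with 50000 cells each. Undifferentiated cells (hPSC, day 0) were turned into definitive ectoderm (DE, day 1) with the TGF-beta receptor inhibitor A8301, the MEK inhibitor trametinib, the WNT secretion inhibitor C59 and the BMP receptor inhibitor LDN193189. DE cells were then replated for 1 day. Anterior neural ectoderm (aNE, day 2) received A8301, LDN193189 and C59. Posterior neural ectoderm (pNE, day 2) received A8301, LDN193189, the retinoic acid receptor agonist TTNPB at 50 nM, FGF2 at 20 ng/mL and the tankyrase inhibitor XAV939. Both were moved to telencephalon, midbrain or hindbrain medium until day 4 (aNE_T, aNE_M, aNE_H; pNE_T, pNE_M, pNE_H). For these later groups the anterior protocol plated 75000 cells per square cm and the posterior protocol 150000, so origin and plating density cannot be told apart.

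The deposited data were 1 peak list per group, giving positions alone, so replicate error could not be had for any value and no test was made. Differences are differences between lists. Intervals of shares are Wilson 95% intervals, which cover the number of regions only. The lists held 167792 peaks (aNE) to 313095 peaks (pNE_H) on the chromosomes used, and read depth is unknown. pNE_H was the longest list by far, with a peak at 60.9% of all regions, against 32.0% in aNE and 38.0% to 46.9% in the other 8. The open shares and the comparisons between lists were therefore also made after keeping the 167792 widest peaks of every list, called lists of 1 size below. The aNE list held that number and was kept whole, while every other list lost its narrowest peaks. As a check of the populations, peaks within 1 kb of an end of POU5F1, the core pluripotency factor, were present in hPSC and DE and in none of the later lists. The other pluripotency genes examined, NANOG and PRDM14, had end peaks in all 10 lists. So had SOX1 and PAX6 (neural), TBXT, SOX17 and EOMES (mesoderm and endoderm) and SOX10 and FOXD3 (neural crest).

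Promoter sequences of IRX1, IRX2 and IRX4 were taken from RefSeq (GRCh38.p14, 250 bases before the start and 50 from it on). The table used here held these 3 members. IRX1 and IRX2 are shown because peaks lay over their starts in nearly every list, and IRX4 because they did not. A promoter of LINC02140, a non-coding gene in the IRX3 window, is shown because peaks covered much of it in pNE_H and pNE_M alone and because it holds the ACANNTGT palindrome that Iroquois proteins are known to bind. Capitals mark CG dinucleotides in the first 3 sequences and the palindrome in the fourth.
IRX1 promoter, chr5:3595582-3595881, plus strand: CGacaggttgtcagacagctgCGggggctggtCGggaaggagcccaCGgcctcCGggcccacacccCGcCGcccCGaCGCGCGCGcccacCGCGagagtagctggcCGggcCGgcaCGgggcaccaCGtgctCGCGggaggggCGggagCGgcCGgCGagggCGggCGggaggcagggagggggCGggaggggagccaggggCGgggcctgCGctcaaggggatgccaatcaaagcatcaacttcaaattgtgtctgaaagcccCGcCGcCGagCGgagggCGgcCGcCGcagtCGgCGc
IRX2 promoter, chr5:2751628-2751927, minus strand: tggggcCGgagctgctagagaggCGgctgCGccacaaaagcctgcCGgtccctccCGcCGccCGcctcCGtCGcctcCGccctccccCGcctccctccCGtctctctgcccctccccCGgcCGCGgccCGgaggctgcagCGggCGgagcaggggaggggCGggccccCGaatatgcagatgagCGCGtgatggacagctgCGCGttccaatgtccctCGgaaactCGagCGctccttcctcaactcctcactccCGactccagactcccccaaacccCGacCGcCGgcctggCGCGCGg
IRX4 promoter, chr5:1887130-1887429, minus strand: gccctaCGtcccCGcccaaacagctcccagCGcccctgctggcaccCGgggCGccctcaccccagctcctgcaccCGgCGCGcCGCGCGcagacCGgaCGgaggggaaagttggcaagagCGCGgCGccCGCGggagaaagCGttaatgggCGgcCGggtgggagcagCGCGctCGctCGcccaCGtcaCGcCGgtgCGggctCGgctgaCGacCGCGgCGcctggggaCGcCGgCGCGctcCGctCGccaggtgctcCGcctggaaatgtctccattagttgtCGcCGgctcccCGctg
LINC02140 promoter, chr16:54370409-54370708, minus strand: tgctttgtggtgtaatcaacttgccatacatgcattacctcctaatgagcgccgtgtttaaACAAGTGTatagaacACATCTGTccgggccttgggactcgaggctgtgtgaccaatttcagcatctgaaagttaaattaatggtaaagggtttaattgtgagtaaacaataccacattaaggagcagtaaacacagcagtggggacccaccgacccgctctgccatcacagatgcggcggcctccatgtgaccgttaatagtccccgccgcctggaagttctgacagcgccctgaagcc

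The 3 IRX promoters were rich in CG dinucleotides. IRX1 had 38 of them, IRX2 had 34 and IRX4 had 44, with GC contents of 76.0%, 73.3% and 75.0%. The median over 34943 RefSeq promoters was 58.7%, and the upper quartile 68.0%. The ratio of observed to expected CG was 0.897 in IRX1, 0.875 in IRX2 and 1.05 in IRX4, against a median of 0.577. None of the 3 sequences held ACANNTGT, which reads the same on both strands and was present in 5.63% of all promoters. Direct repeats of AGGTCA or AGTTCA spaced by 1, 2 or 5 bases, the form that retinoic acid receptors are known to bind, were searched on both strands and were in none of the 4 sequences. They were rare throughout, in 0.0487%, 0.00572% and 0.02% of promoters. The LINC02140 promoter held 2 ACANNTGT matches.

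Sequence of this kind was open at IRX2 in every list: peaks covered all 300 bases of the IRX2 promoter in 10 of 10 lists. At IRX1 they covered all 300 bases in 8 lists, 243 bases in hPSC and 0 in DE. The DE list did have peaks on both sides of that promoter, at chr5:3594517-3594948 and chr5:3596220-3596474. IRX4 was different. Peaks overlapped 9 bases of the promoter printed above in aNE and 0 in the other 9 lists, and 2 other RefSeq starts of IRX4 (promoters chr5:1886896-1887195 and chr5:1882876-1883175) were overlapped in none. Peaks did lie close by: the region chr5:1887421-1887955, 0.242 kb outside the gene on the start side, was open in 6 lists. Its widest peaks were 377 bp in hPSC, 189 bp in DE, 258 bp in aNE, 228 bp in aNE_T, 132 bp in aNE_M and 150 bp in pNE_H. The LINC02140 promoter was covered over 286 bases in pNE_H and 125 in pNE_M. The other lists covered 18 bases or fewer, with 0 in DE, aNE and pNE_T. The promoter of another LINC02140 start, chr16:54370650-54370949, was overlapped by peaks in all 10 lists. The extremes were 71 bases in DE and all 300 in pNE_H, and hPSC and pNE had 249.

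All 6 members had at least 1 peak within 1 kb of a gene end in every list. For IRX3, IRX5 and IRX6 the strand was not in the tables used, so both ends of each gene were treated alike. At IRX6 the region chr16:55323386-55325431 over its lower end was open in all lists. Its widest peak was 778 bp in hPSC, 1139 bp in DE, 1773 bp in aNE, with pNE at 1998 bp. Its day 4 widths were 1821, 1964 and 2005 bp for aNE_T, aNE_M, aNE_H and 1984, 1027 and 1996 bp for pNE_T, pNE_M, pNE_H. The widest peak was thus narrowest in hPSC and pNE_M, and at least 1773 bp wide in 7 of the 8 lists from day 2 on. In pNE_M the region was split into peaks of 782 and 1027 bp. It was also split in hPSC (778, 211 and 421 bp) and DE (1139 and 427 bp), and was a single peak in each other list. At IRX3 the region chr16:54285656-54287520 over the upper end held peaks of 1191 bp in hPSC, 1102 bp in DE, 1535 bp in aNE and 1181 bp in pNE. The day 4 widths were 1634, 1531 and 1498 bp for aNE_T, aNE_M, aNE_H and 1714, 1297 and 1209 bp for pNE_T, pNE_M, pNE_H. The order of the day 4 lists by width thus mixed both origins.

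IRX5 shares its region with CRNDE, a long non-coding RNA gene that runs the other way from a start nearby. The region chr16:54928461-54931440 covered the lower end of IRX5 and the start of CRNDE, whose promoter was inside peaks over all 300 bases in every list. Its widest peak was 1158 bp in hPSC, 906 bp in DE, 1274 bp in aNE and 1680 bp in pNE. In aNE_M it was 2907 bp and in pNE_H 2914 bp, and in the other 4 day 4 lists it was between 1326 and 1345 bp. In aNE_M and pNE_H the region was a single peak, and in each other list it was 2 or 3 peaks. IRX2 shares its region with IRX2-DT, a divergent non-coding transcript. The widest peak of that region, chr5:2750075-2752465, was 1160 bp in hPSC, 751 bp in DE, 1041 bp in aNE and 1050 bp in pNE. Day 4 gave 1905, 1958 and 1273 bp for aNE_T, aNE_M, aNE_H and 1538, 1617 and 752 bp for pNE_T, pNE_M, pNE_H, so both hindbrain media gave the narrower peaks within their origin. The region was split in hPSC (892 and 1160 bp), DE (330 and 751 bp), aNE (179 and 1041 bp) and pNE_T (182 and 1538 bp). It was a single peak in each other list. Summed, the hPSC peaks held 2052 bp, more than the single peak of any day 4 list. Inside IRX2 a second region, chr5:2738780-2741213, was as wide: between 982 bp (aNE_M) and 2342 bp (DE), and open in 10 of 10 lists.

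At IRX1 the region over the start, chr5:3594440-3596474, was open in every list and was made of 2 to 4 separate peaks. The widest of them was 383 bp in hPSC and 432 bp in DE, then 923 bp in aNE, with pNE at 1259 bp. Its day 4 widths were 919, 507 and 510 bp for aNE_T, aNE_M, aNE_H and 948, 892 and 493 bp for pNE_T, pNE_M, pNE_H. These widths do not all belong to the same peak. In hPSC, DE, aNE, pNE_T and pNE_H the widest peak ended before the start, and in the other lists it lay over the start. The peak over the start was 324 bp in hPSC, 812 bp in aNE, 839 bp in pNE_T and 410 bp in pNE_H, and DE had none there. By the widest peak of the region, the day 2 lists, both telencephalon lists and pNE_M exceeded hPSC and DE, while aNE_M, aNE_H and pNE_H lay close to them. At IRX4 the ends held 5 regions, of which chr5:1876202-1876995, outside the gene by 0.418 kb, was open in all lists with peaks of 167 bp (hPSC) to 763 bp (aNE_T). Near the IRX4 start and inside the gene, chr5:1885971-1886580 was open in 3 lists only, with 172 bp in DE, 494 bp in aNE_T and 604 bp in pNE_H. On the other side of the start, chr5:1887421-1887955 was open in 6 lists, as given above.

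**Figure D1:**
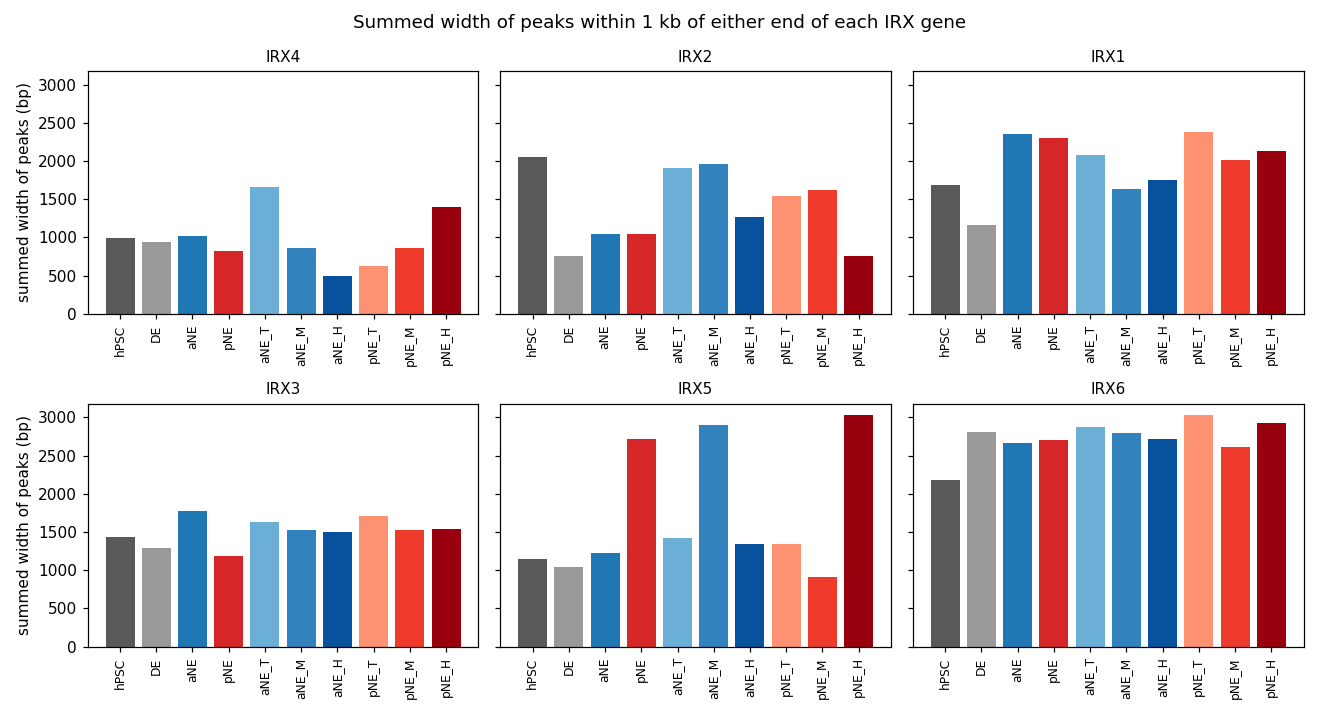
Summed width in bp (vertical axis) of all peaks within 1 kb of either end of each IRX gene, 1 bar per list. IRX6 stands between 2187 bp (hPSC) and 3027 bp (pNE_T), IRX4 between 498 bp (aNE_H) and 1657 bp (aNE_T), and at IRX5 the bars of pNE, aNE_M and pNE_H rise to 2718, 2907 and 3031 bp. The IRX5 rise depends on the 1 kb limit. In the other lists the peak at the CRNDE start ended just beyond the limit and was not counted. That peak was 1341 bp in aNE_T, 1314 bp in aNE_H and 1295 bp in pNE_T.

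The windows held between 37 and 72 regions. IRX4 had 72, or 34.3 per 100 kb, IRX2 had 51 (23.6), IRX3 had 46 (22.6), IRX1 had 43 (20.9), IRX5 had 37 (18.2) and IRX6 had 37 (17.9). Over the windows of 19227 protein-coding genes, made in the same way and overlapping each other in many places, the median was 20.1 per 100 kb, with quartiles of 15.6 and 24.4. IRX4 alone lay above the upper quartile. Its window is also the only 1 of the 6 that contains other protein-coding genes, 4 in number, and it had 19 regions within 1 kb of a gene end, against 2 to 9 in the other windows. Regions lay a median of 47.7 kb from the IRX gene, and 57 of the 286 lay within 10 kb.

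**Figure D2:**
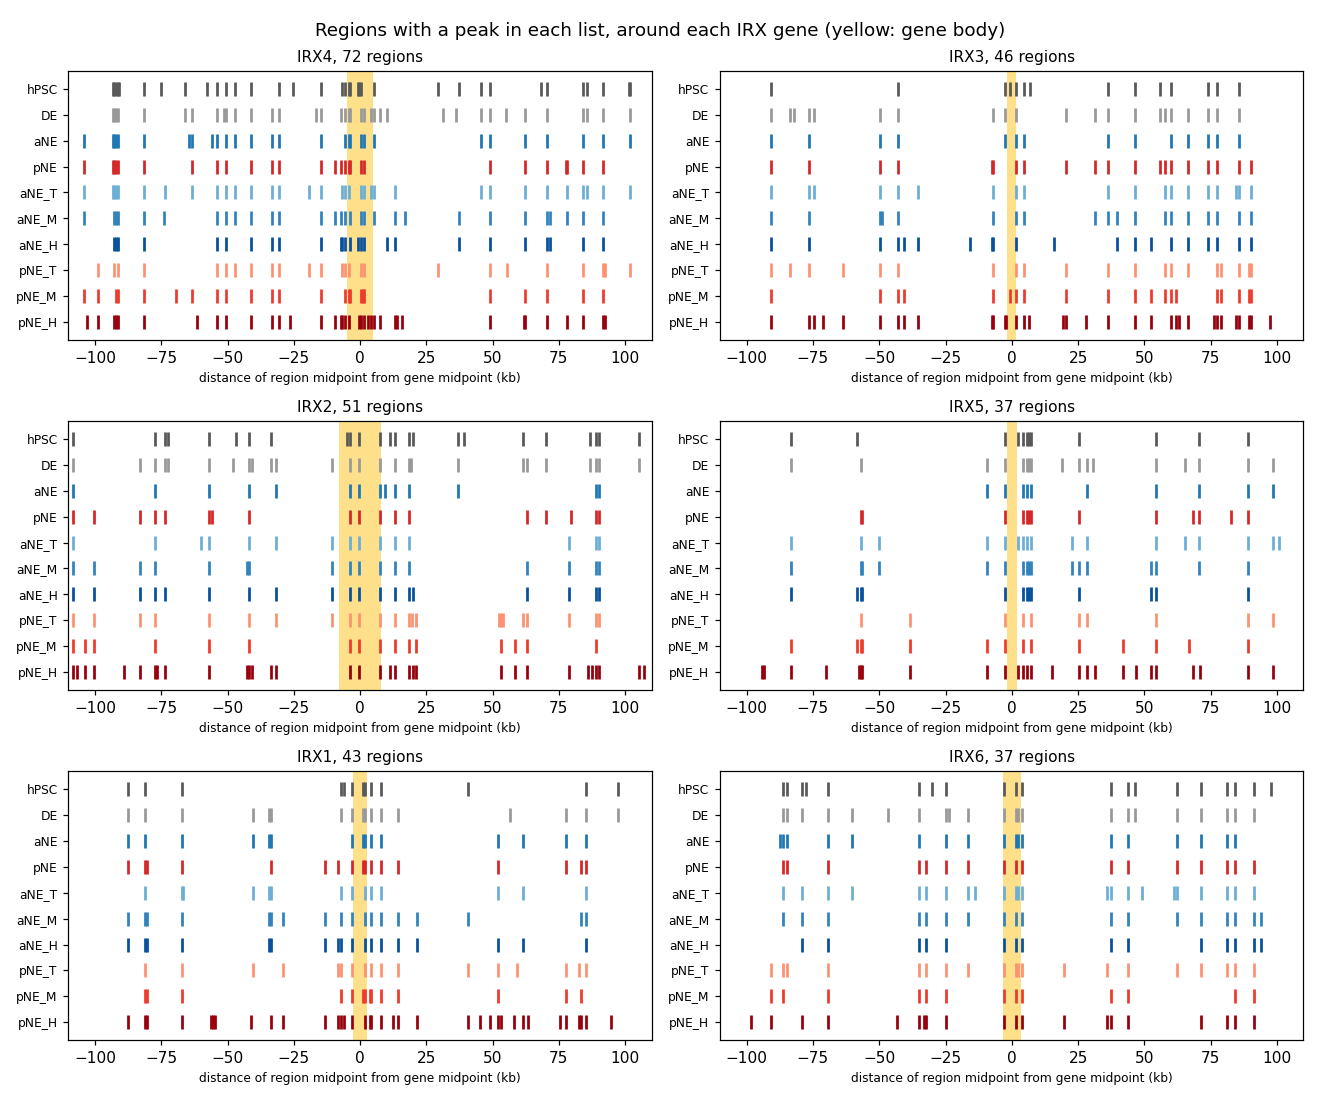
Position of each open region (vertical mark, midpoint in kb from the gene midpoint, horizontal axis) in each of the 10 lists (rows) for the 6 IRX windows, with the gene body in yellow. Marks that line up through all rows are the 49 regions open in every list, and the bottom row, pNE_H, has the most marks in 4 windows (IRX1, IRX2, IRX3 and IRX5) and shares the highest number with DE at IRX4.

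The open patterns were mostly at the extremes. In IRXA 60 regions (36.1%) were open in 1 list and 29 (17.5%) in all 10, and in IRXB 38 (31.7%) and 20 (16.7%). Over all regions of the genome the shares were 33.5% and 16.5%, so both clusters lay near the background. The 286 regions showed 109 different patterns, 76 of them once. The most frequent pattern after open in all lists was open in pNE_H alone, with 44 regions, 15.4% of the regions against 10.6% over all regions. Regions open in all lists had a median widest peak of 872 bp and those open in 1 list 169 bp. Of the 49 regions open throughout, 17 lay within 1 kb of a gene end, as did 27.0% of all regions open throughout.

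**Figure D3:**
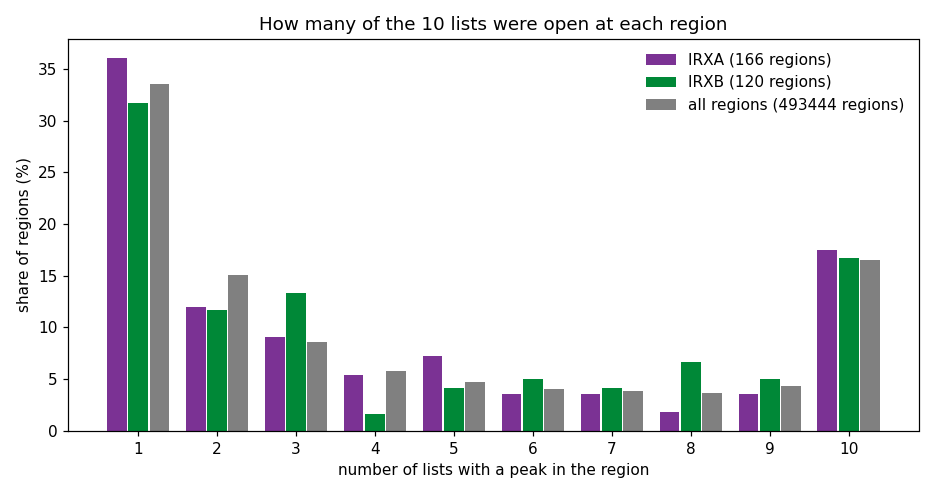
Share of regions in percent (vertical axis) by the number of lists with a peak there (horizontal axis), for IRXA, IRXB and all regions. In all 3 sets the bars are highest at 1 list (36.1%, 31.7% and 33.5%) and next highest at 10 lists (17.5%, 16.7% and 16.5%).

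Open in all 6 day 4 lists were 58 regions (20.3%, against 20.3%). By locus, 13 regions at IRX4, 10 at IRX2, 6 at IRX1, 7 at IRX3, 5 at IRX5 and 8 at IRX6 were open in all lists. In the IRX3 window the widest of these away from the member's own ends was chr16:54193513-54195066, 88.2 kb from IRX3 and outside any gene, with peaks of 640 bp (pNE_T) to 1486 bp (aNE_M). In the IRX6 window it was chr16:55302173-55303202, 21.0 kb from the gene, with 135 bp (pNE_M) to 1030 bp (pNE_H). In the IRX4 window the widest lay over MRPL36 and NDUFS6, genes of the mitochondrial ribosome and of respiratory complex I, at chr5:1799202-1802122. In the IRX1 window chr5:3606201-3607075 lay in the non-coding gene LOC107986399, 4.8 kb from IRX1, with 308 bp (pNE_T) to 766 bp (aNE).

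Most lists had peaks at a similar part of the IRX regions as of all regions. In the lists as deposited the share was lower by over 5 percentage points in pNE_M and higher by over 4 in aNE_T and pNE_H. Over the 6 windows the hPSC list was open at 118 regions (41.3%, against 40.6% of all regions), DE at 140 (49.0%, against 46.9%), aNE at 100 (35.0%, against 32.0%) and pNE at 112 (39.2%, against 39.1%). On day 4 aNE_T was open at 121 (42.3%, against 38.0%), aNE_M at 119 (41.6%, against 41.7%) and aNE_H at 111 (38.8%, against 38.9%). In the pNE-derived lists they were 115 in pNE_T (40.2%, against 41.3%), 101 in pNE_M (35.3%, against 41.0%) and 186 in pNE_H (65.0%, against 60.9%). With the 167792 widest peaks of every list, pNE_M stayed lower (35.5%, against 43.7%) and aNE_T stayed higher (48.4%, against 44.3%). The pNE_H share was then 46.5%, against 45.4%, so most of its excess was not kept. DE was then at 48.8%, against 43.9%.

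The counts of each window are best read against the shares of all regions just given, since DE and pNE_H are long lists. IRX1 was open at 13 of 43 regions in hPSC (30.2%, interval 18.6% to 45.1%), 17 in DE, 15 in aNE and 17 in pNE. It had 14 in aNE_T, 18 in both aNE_M and aNE_H, 17 in pNE_T, 14 in pNE_M and 36 in pNE_H (83.7%, interval 70.0% to 91.9%). The pNE_H value stood apart from the other 9 lists, which lay between 13 and 18 regions. Against all regions it was 22.8 percentage points higher, while hPSC was lower by 10.4 points (30.2%, against 40.6%). IRX3 had 14 of 46 in hPSC and aNE, 21 in DE and 20 in pNE. Its day 4 lists had 19, 19 and 20 in aNE_T, aNE_M and aNE_H, 20 in pNE_T and pNE_M, and 34 in pNE_H (73.9%). IRX3 was thus level across the day 4 lists other than pNE_H, where it stood 13.0 points above all regions. IRX5 had 12 of 37 in hPSC, 17 in DE, 10 in aNE and 13 in pNE, then 17, 17 and 13 in aNE_T, aNE_M and aNE_H and 10, 14 and 26 in pNE_T, pNE_M and pNE_H.

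IRX2, IRX4 and IRX6 had their higher values in early lists or in aNE_T as well as in pNE_H. IRX2 had 24 of 51 in hPSC and 26 in DE, and then 14 in aNE and 18 in pNE. Day 4 gave 15, 17 and 19 in aNE_T, aNE_M and aNE_H and 23, 16 and 33 in pNE_T, pNE_M and pNE_H. IRX4 had 35 of 72 in hPSC and 37 in DE, then 29 in aNE and 27 in pNE. It had 33, 30 and 26 in aNE_T, aNE_M and aNE_H and 25, 24 and 37 in pNE_T, pNE_M and pNE_H. IRX6 had 20 of 37 in hPSC, 22 in DE, 18 in aNE and 17 in pNE, with 23, 18 and 15 in aNE_T, aNE_M and aNE_H and 20, 13 and 20 in pNE_T, pNE_M and pNE_H. At IRX4 and IRX6 the pNE_H list therefore did not exceed DE. IRX6 lay above the share of all regions in 8 lists, by 1.68 (aNE_H) to 24.1 (aNE_T) points, and below it in pNE_M and pNE_H. IRX4 lay above it in hPSC, DE, aNE and aNE_T, by 4.49 to 8.32 points, and below it in the other 6. IRX2 lay above it in hPSC, DE, pNE_T and pNE_H, by 3.76 to 6.48 points. Protein-coding gene windows also lay above all regions, with medians of 50.9% in hPSC and 56.9% in DE. Against those medians IRX4 and IRX2 were low in both lists. IRX4 was exceeded by 56.8% of the windows in hPSC and 67.1% in DE, and IRX2 by 61.3% and 68.4%. IRX6 was exceeded by 39.9% and 41.4%. In aNE and aNE_T IRX4 was exceeded by 46.7% and 45.8%.

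**Figure D4:**
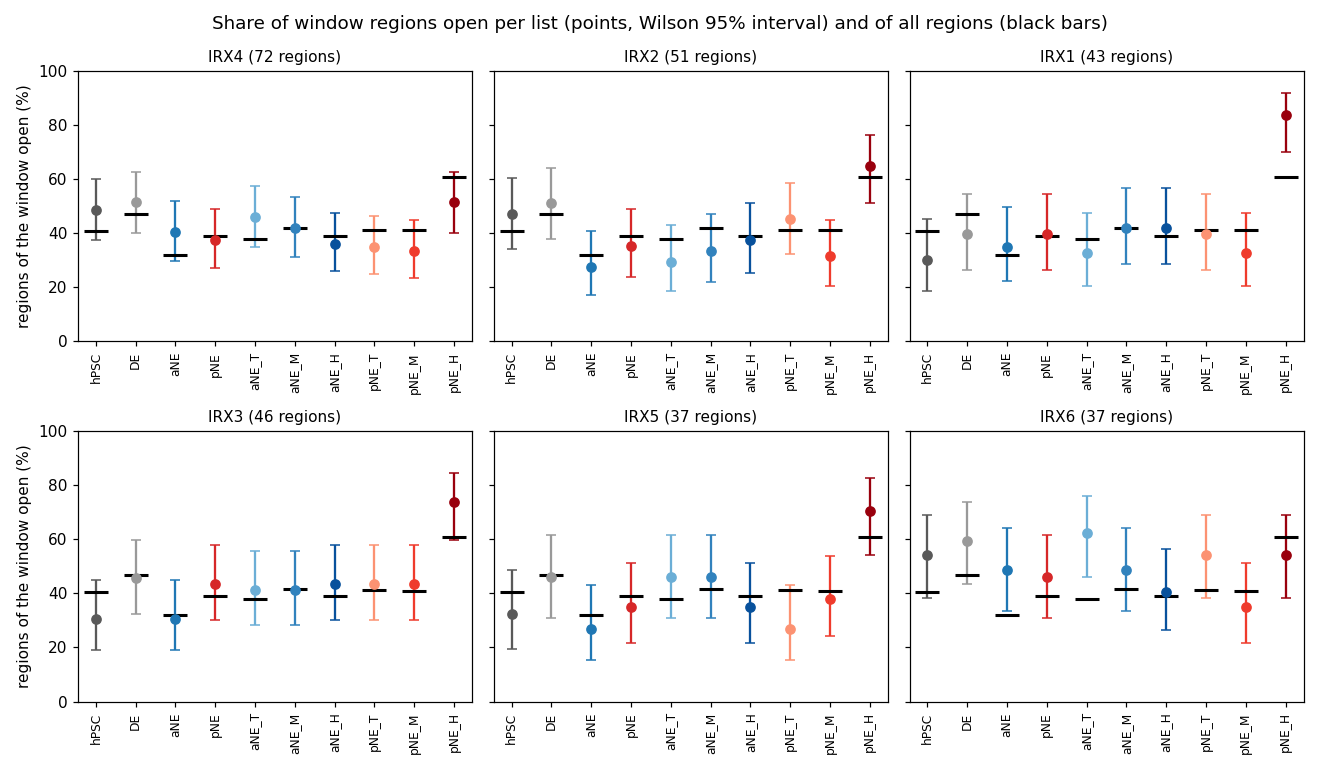
Share of the regions of each window open in each list in percent (points, with Wilson 95% intervals) and share of all regions open in that list (black bars). IRX1 in pNE_H (83.7%) lies with its whole interval above the bar of 60.9%, and IRX6 in aNE_T (62.2%) lies above the bar of 38.0%.

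Along the path from hPSC to DE, IRXA gained 26 regions and lost 18, and IRXB gained 22 and lost 8. As shares the gains were 15.7% and 18.3%, against 15.1% of all regions. The losses were 10.8% and 6.67%, against 8.83%. IRX3 gained 10 and lost 3 of its 46 regions in this step, while IRX4 gained 13 and lost 11 of its 72. From DE to aNE, IRXA gained 6 and lost 28 and IRXB gained 2 and lost 20, with 3.4% of all regions gained and 18.3% lost. From DE to pNE, IRXA gained 12 and lost 30 and IRXB gained 7 and lost 17, with 9.9% of all regions gained and 17.7% lost. IRX2 gave the most losses for its size: 13 of its 51 regions were open in DE and not in aNE, and 11 were open in DE and not in pNE. The shares over both clusters were 2.8% and 6.64% for the gains in aNE and pNE, below the background, and 16.8% and 16.4% for the losses. Gains and losses follow list length by construction. With lists of 1 size, 21 IRX regions were gained (9.68%, against 10.1%) and 27 lost (12.4%, against 10.5%) towards aNE. Towards pNE 28 were gained (12.9%, against 13.6%) and 36 lost (16.6%, against 13.7%). The aNE list was kept whole there and DE was trimmed, so a gain towards aNE can stand for a DE peak left out.

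Regions open in hPSC or DE and in no later list numbered 31, or 10.8%, against 12.9% of all regions. IRX4 had 12 of them, IRX2 had 7 and IRX6 had 6, and IRX1, IRX3 and IRX5 had 2 each. The region chr5:2780240-2781023, 28.6 kb from IRX2, kept a peak 1 step longer: 727 bp in hPSC, 702 bp in DE and 335 bp in aNE, with none in pNE or on day 4. Open in hPSC and DE and nowhere else were 5 regions (1.75%, against 2.77%), among them chr5:1815955-1816333 at an end of NDUFS6, with 369 bp in hPSC and 282 bp in DE.

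The day 2 populations were then set side by side, which is the comparison named in the series title. Of the 286 regions 81 were open in both (28.3%, against 26.4%), 31 in pNE and not in aNE (10.8%, against 12.7%) and 19 in aNE and not in pNE (6.64%, against 5.54%). The IRXA numbers were 16 for pNE and 12 for aNE, and the IRXB numbers were 15 and 7. IRX3 had the clearest tilt, with 7 regions open in pNE alone of the pair and 1 in aNE. IRX2 had 7 and 3, IRX5 had 6 and 3 and IRX1 had 5 and 3. IRX4 (4 and 6) and IRX6 (2 and 3) tilted the other way. The totals in lists of 1 size were 22 for pNE (10.1%, against 10.8%) and 24 for aNE (11.1%, against 10.6%), so the excess of pNE over all regions was also nearly gone. IRX3 still had 5 and 1, and IRXA had 11 and 14. The IRXA excess on the pNE side thus changed direction in lists of 1 size, beside a like loss over all regions. In these lists aNE kept its narrow peaks and pNE did not, so a narrow peak of both can count for aNE alone. The change therefore cannot be assigned to list length.

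At IRX3 the pNE-only regions included chr16:54305062-54305913, 18.3 kb from the gene and outside any gene. It had peaks of 267 bp in DE and 173 bp in pNE, none in hPSC or aNE, then 852, 510 and 552 bp for pNE_T, pNE_M, pNE_H and none in the 3 aNE-derived lists. Another, chr16:54374722-54375559 at an end of LOC105371272, was 129 bp wide in pNE, absent from hPSC, DE and aNE, and open in all 6 day 4 lists with 562 bp (aNE_H) to 838 bp (pNE_M). The first of these regions followed origin through day 4, and the second did not.

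At IRX2 chr5:2642893-2643763, 91.9 kb from the gene, was 174 bp wide in pNE. It had no peak in hPSC, DE, aNE or aNE_T, but had 227 bp in aNE_M, 300 bp in aNE_H and 721, 763 and 871 bp for pNE_T, pNE_M, pNE_H. The IRX6 region chr16:55294585-55295276 had 241 bp in pNE and no peak in hPSC, DE or aNE, and it was open in all day 4 lists of both origins, at 243 bp (pNE_M) to 692 bp (pNE_H). On the aNE side chr16:55266787-55267294, 56.9 kb from IRX6, had peaks of 457 bp in DE, 508 bp in aNE and 455 bp in aNE_T and in no other list. At IRX1 chr5:3564184-3564676 had 293 bp in DE, 493 bp in aNE, and 344, 233 and 240 bp for aNE_T, aNE_M, aNE_H. It had no peak in hPSC, pNE or any pNE-derived list.

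By origin on day 4, 9 IRX regions were open in all 3 pNE-derived lists and in no aNE-derived list (3.15%, against 2.33% of all regions). The reverse held for 2 regions (0.699%, against 0.633%). IRX3 had 3 of the 9, IRX2 had 2, and IRX1, IRX4, IRX5 and IRX6 had 1 each. Of the 9 regions 7 had no peak in any list before day 4. These 7 were also all the IRX regions without a peak before day 4 that were open in the 3 pNE-derived lists, whatever the aNE-derived lists held (2.45%, against 2.23% of all regions). An example was chr5:1782926-1783672, 93.7 kb from IRX4, with 632, 296 and 747 bp for pNE_T, pNE_M, pNE_H. Near IRX2 chr5:2764331-2764852 had 220, 150 and 522 bp in those lists, and chr16:54363564-54364182 near IRX3 had 170, 552 and 503 bp. The IRX1 region chr5:3675638-3676661, 74.2 kb away, had been open before: 721 bp in DE, 311 bp in aNE, 511 bp in pNE. After that it had 955, 175 and 1024 bp for pNE_T, pNE_M, pNE_H and nothing in the aNE-derived lists.

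Both regions with the reverse pattern were open before day 4. One is the IRX1 region chr5:3564184-3564676 described above. The other, chr16:54358919-54359370 at 72.1 kb from IRX3, had 200 bp in hPSC, 444 bp in DE, 315 bp in aNE, with pNE at 273 bp. It kept 201, 198 and 204 bp for aNE_T, aNE_M, aNE_H and had no peak in the pNE-derived lists. The counts in lists of 1 size were 6 and 7 of 217 regions (2.76% and 3.23%, against 2.09% and 1.41%), so the excess of the pNE-derived pattern was not kept. The narrowest peak was 122 to 126 bp in the aNE-derived lists and 109 to 115 bp in the pNE-derived lists. With peaks of at least 200 bp the excess of pNE-derived over aNE-derived regions kept its sign in both clusters. The part of the narrowest peaks in the result was not tested.

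From day 2 to day 4, with the lists as deposited, 94 IRX regions had a peak in pNE_H and not in pNE (32.9%, against 27.3%), and 20 were lost (6.99%, against 5.53%). After the reduction to lists of 1 size 31 were gained (14.3%, against 14.3%) and 28 lost (12.9%, against 12.7%). The gains as deposited were 20 at IRX1, 18 at IRX2, 18 at IRX3, 16 at IRX5, 15 at IRX4 and 7 at IRX6, and in lists of 1 size 8, 5, 6, 8, 2 and 2. From pNE to pNE_T 34 were gained and 31 lost (11.9% and 10.8%, against 13.7% and 11.6%), and from pNE to pNE_M 22 and 33 (7.69% and 11.5%, against 12.9% and 11.0%). From aNE the gains and losses were 32 and 11 in aNE_T (11.2% and 3.85%, against 10.9% and 4.88%). They were 40 and 21 in aNE_M (14.0% and 7.34%, against 15.6% and 5.88%) and 40 and 29 in aNE_H (14.0% and 10.1%, against 14.8% and 7.92%).

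The same medium was also compared between origins. In hindbrain medium 89 IRX regions were open in pNE_H and not in aNE_H (31.1%, against 28.5%), and 14 in aNE_H and not in pNE_H (4.9%, against 6.38%). With lists of 1 size these numbers were 32 (14.7%, against 15.3%) and 26 of 217 (against 13.9%). In midbrain medium 25 were open in pNE_M and not in aNE_M (8.74%, against 12.3%), and 43 in aNE_M and not in pNE_M (15.0%, against 13.0%). In telencephalon medium the numbers were 30 for pNE_T (10.5%, against 14.2%) and 36 for aNE_T (12.6%, against 10.9%). Across these 2 media the IRX regions thus had more aNE-derived than pNE-derived exclusive regions, while in telencephalon medium all regions together showed the opposite order. With lists of 1 size the telencephalon numbers were 25 for pNE_T (11.5%, against 14.3%) and 36 for aNE_T (16.6%, against 14.2%), so that all regions were nearly even. IRX4 had 12 regions open in aNE_T and not in pNE_T and 4 the other way, in lists of either kind. IRX5 had 9 and 2 as deposited and 6 and 3 in lists of 1 size. IRX2 had 1 and 9 as deposited and 4 and 5 in lists of 1 size.

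The windows also differed from each other in pNE_H. Among the 19227 protein-coding gene windows the median share of regions open in pNE_H was 60.0%, with quartiles of 53.8% and 66.0%. IRX1, at 83.7%, was exceeded by 0.442% of the windows, IRX3 (73.9%) by 5.65%, IRX5 (70.3%) by 11.9% and IRX2 (64.7%) by 29.2%. IRX6 (54.1%) was exceeded by 74.2% and IRX4 (51.4%) by 82.1%. IRX1 was singled out here after its value was seen. In lists of 1 size pNE_H was open at 45.4% of all regions, at 21 of 32 IRX1 regions (65.6%) and at 16 of 28 IRX5 regions (57.1%). IRX3 had 19 of 36 (52.8%), IRX2 had 17 of 35 (48.6%), IRX6 had 12 of 31 (38.7%) and IRX4 had 16 of 55 (29.1%). The order of the windows at the top and the bottom was the same in both.

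**Figure D5:**
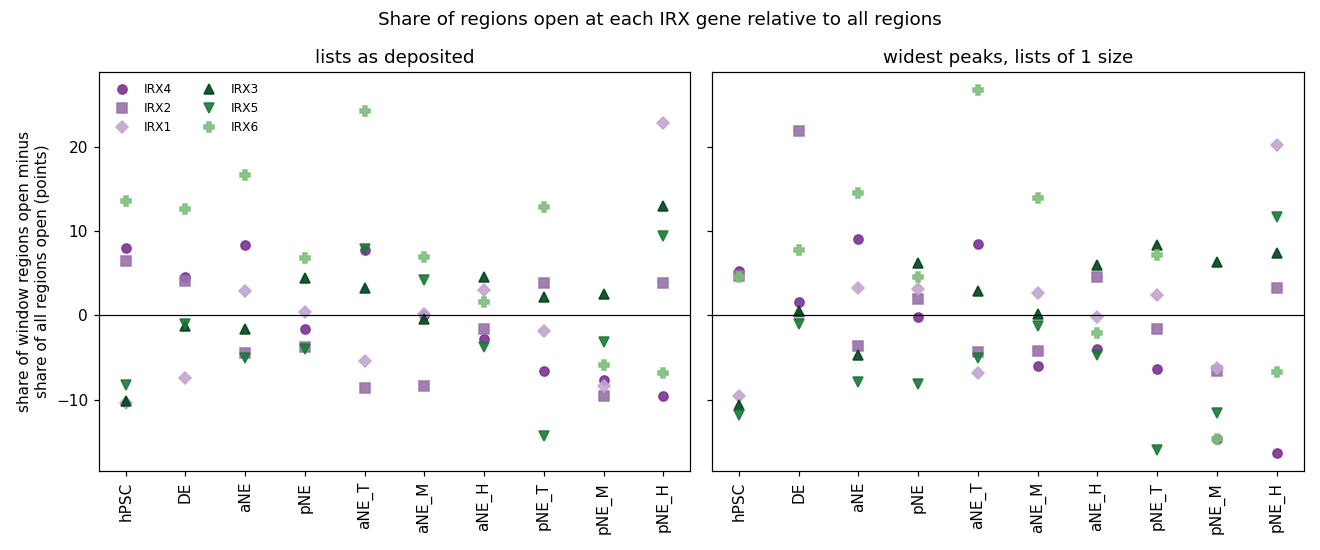
Share of window regions open minus the share of all regions open, in percentage points (vertical axis), per list, with lists as deposited (left) and with lists of 1 size (right). IRX1 in pNE_H stands highest in its list in both (36 of 43 and 21 of 32 regions), IRX4 lowest (37 of 72 and 16 of 55), and IRX6 stands highest in aNE_T.

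The regions open in pNE_H alone made up 12 of 43 at IRX1 (27.9%), 8 of 37 at IRX5 (21.6%), 8 of 46 at IRX3 (17.4%), 6 of 51 at IRX2 (11.8%), 7 of 72 at IRX4 (9.72%) and 3 of 37 at IRX6 (8.11%). Over all regions the share was 10.6%. In lists of 1 size IRX1 had 4 of 32 (12.5%), IRX5 had 4 of 28 (14.3%) and IRX3 had 3 of 36 (8.33%), against 4.01% of all regions, and the other 3 windows had 0. These regions were narrow, with a median widest peak of 182.5 bp, and 27 of the 44 lay more than 50 kb from the IRX gene, as did 136 of all 286 regions and 52 of the 98 open in 1 list. The widest was chr16:54382030-54382894, 865 bp, at 95.2 kb from IRX3. The next were chr16:54838267-54838845 near IRX5, 579 bp, and chr5:3647494-3647980, 487 bp, at 46.1 kb from IRX1.

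In telencephalon medium IRX6 had the highest share of the 6 windows in both origins, and IRX5 the lowest in pNE_T. IRX6 was open at 23 of 37 regions in aNE_T (62.2%), a share exceeded by 5.67% of gene windows, and at 20 in pNE_T (54.1%), exceeded by 14.8%. IRX5 was open at 17 of 37 in aNE_T (45.9%), close to the median window of 44.7%, and at 10 in pNE_T (27.0%), where 97.2% of gene windows had a higher share. In lists of 1 size IRX5 had 11 of 28 in aNE_T and 8 of 28 in pNE_T, and IRX6 had 22 of 31 and 16 of 31. IRX3, with 19 of 36, was then slightly above IRX6 in pNE_T.

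The counterparts in the 2 clusters were compared by their profile over the 10 lists, the share of window regions open minus the share of all regions open. The profile of IRX4 had a Pearson r of 0.83 with IRX6, IRX1 had 0.773 with IRX3, and IRX2 had -0.351 with IRX5. Each r is over the same 10 lists, which differ in length and whose peak calling enters both profiles. It is a description only. IRX6 was the member most like IRX4, and IRX3 the member most like IRX1, whereas IRX2 was most like IRX1 (0.159). With lists of 1 size the values were 0.781, 0.434 and 0.295. Many unrelated genes were as similar: the genes most like IRX1 were SERPINI2 (0.937), CBLB (0.924) and HAVCR1 (0.924), and those most like IRX4 were C6orf132 (0.986), DEGS2 (0.98) and SNX21 (0.978). IRX3 was most like TMEM232 (0.93), TXLNB (0.93) and MUC7 (0.926), and IRX5 was most like ORMDL2 (0.878), MMP19 (0.865) and GPD1L (0.859). IRX2 was most like CRYL1 (0.917), UGT1A6 (0.916) and UGT1A7 (0.914), and IRX6 was most like KCNK5 (0.967), EXOSC7 (0.963) and SKOR2 (0.957).

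Neural plate regulators, together with MKX, were counted with the same windows. Of the 12 genes, 11 had a peak within 1 kb of an end in all 10 lists, as had all 6 IRX genes. The exception was OTX2, a forebrain and midbrain factor, which had none in pNE_M. Its summed peak width was 507 bp in hPSC, 2284 bp in DE, 2166 bp in aNE, 1607 bp in pNE, 2044 bp in aNE_T and 1275 bp in pNE_T. It was 235 bp in aNE_M, 353 bp in aNE_H and 348 bp in pNE_H. At SIX3, the anterior counterpart of Irx3, 6 regions had a peak in pNE but none in aNE and 3 the reverse, a tilt like that of IRX1 and IRX2. More regions on the pNE side of this comparison were present at 10 of the 12 genes and at 4 of the 6 IRX genes. The aNE side was larger at 1 of the 12 and 2 of the 6. Over all regions the pNE side was larger as well, at 12.7% against 5.54%. In lists of 1 size it was 10.8% against 10.6% of all regions. The 3 against 0 pattern of day 4 gave more pNE-derived regions at 7 of the 12 genes and 5 of the 6, among them EN1, a midbrain and hindbrain boundary factor, with 3 and 0. Over all regions this pattern was also more frequent on the pNE-derived side, at 2.33% against 0.633%. For MKX, a related TALE homeobox gene, the numbers were 4 for pNE and 3 for aNE on day 2. Of its 40 regions 5 were open in pNE_H alone, beside 10.6% of all regions. These 12 genes were described and not tested.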

How the data were processed

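The labels describe 30 OmniATAC-seq libraries in 10 groups of 3 replicates. Per the submitters' processing notes hg38 was the build, and Bowtie2, MACS2 and bedtools were among the tools; their settings and the way replicates were combined are not given in the sources used here. The deposited lists hold the start and end of each peak and no score. Each list was given to the group whose name it carries.

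Only the autosomes, X and Y were kept, and peaks sharing 1 bp were joined over all lists. Gene positions came from the RefSeq table of GRCh38.p14. Windows reached 100 kb beyond each gene. Shares have Wilson 95% intervals, which cover counting error only. With 1 list per group no test was made. The members, the 12 comparison genes and the rules for named regions (up to 2 widest per pattern and locus) and alike genes (3 per member, windows of at least 10 regions) were chosen with earlier results of these data known. Gene starts were replaced by both gene ends, since strand was not in the tables for IRX3, IRX5 and IRX6. The code was tested on simulated lists. Python 3.11.15, numpy 2.4.6, pandas 2.3.3, statsmodels 0.14.6 and matplotlib 3.10.9 were used. Alternatives were windows of 50 kb and 200 kb, the whole cluster span, lists of 1 size, 50% coverage of a region, peaks of at least 200 bp, and leaving out regions within 1 kb of gene ends. The likeness of counterparts in lists of 1 size was chosen after seeing the data.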

Additional observations from a re-analysis of the deposited data

Results flagged for a closer look

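The step from telencephalon to hindbrain medium went in opposite directions in the 2 origins at IRX4 and IRX5. At IRX4 the number of open regions fell by 7 in the aNE-derived lists (33 to 26) and rose by 12 in the pNE-derived lists (25 to 37). At IRX5 it fell by 4 in the aNE-derived lists (17 to 13) and rose by 16 in the pNE-derived lists (10 to 26). Each direction rests on 1 list per group, so the difference was not tested. In lists of 1 size IRX4 went from 29 to 22 and from 21 to 16, so that both origins fell, and IRX5 went from 11 to 11 and from 8 to 16.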

How the results depend on the processing

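No paired analysis was possible because there is 1 list per group and no list per replicate, and for the same reason no replicate could be left out. The 64 values for the clusters were recomputed under 7 alternatives, which gave 448 values: 397 stayed within the interval or within 1.5 times the value reported, 47 moved outside it and 4 changed sign. Windows of 200 kb moved none. The excess of regions open in pNE and not in aNE over the reverse in IRXA was -2 with windows of 50 kb and -3 in lists of 1 size, and in IRXB it was -1 with 50% coverage. The excess of pNE-derived over aNE-derived regions was -1 in IRXA and 0 in IRXB in lists of 1 size. Windows of 50 kb left 0% of IRXB regions with the aNE-derived pattern. In lists of 1 size the gains from DE to aNE were 10.7% in IRXA and 8.42% in IRXB, those from DE to pNE 13.1% and 12.6%, and the IRXB losses from DE to aNE 10.5%. Open shares in IRXA were then 47.5% in aNE, 45.1% in aNE_T, 45.1% in pNE and 44.3% in pNE_H, and in IRXB 44.2% in aNE and 49.5% in pNE_H. With 50% coverage the open shares in IRXA were 34.3% in hPSC, 38.0% in DE, 22.3% in aNE, 27.1% in pNE, 29.5% in pNE_T, 19.3% in pNE_M, 28.3% in aNE_M and 25.3% in aNE_H. In IRXB they were 26.7% in hPSC, 35.0% in DE, 26.7% in aNE, 25.8% in pNE, 35.0% in aNE_M, 30.0% in pNE_T and 26.7% in pNE_M, with 7.5% of regions gained from DE to aNE and 7.5% open in pNE and not in aNE. Peaks of at least 200 bp gave IRXA losses from hPSC to DE of 6.03% and an IRXB share in pNE_H of 57.5%. Over the whole IRXA span aNE was open at 27.3% of regions, with 2.79% of bases in peaks. Away from gene ends fewer bases were in peaks by construction: in IRXA 3.08% in hPSC, 2.45% in aNE, 2.99% in aNE_T, 2.97% in aNE_M and 2.33% in pNE_M. In IRXB this was 2.34% in hPSC, 2.4% in aNE, 2.51% in pNE, 3.39% in aNE_T, 2.47% in pNE_T, 1.95% in pNE_M, 3.16% in aNE_M and 2.48% in aNE_H. The r of IRX2 with IRX5 changed sign, from -0.351 to 0.295, in lists of 1 size. Read depth is unknown, so a region without a peak may be open below the threshold of the caller.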

Other observations

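Other genes share the IRX windows, 31 in all, most of them non-coding. Peaks within 1 kb of an end were present in all 10 lists for 12 of these genes and in none of the lists for 10. LOC105371275, a non-coding gene in the IRX5 window, had such peaks only in the pNE-derived lists, at 221 bp in pNE_T, 234 bp in pNE_M and 381 bp in pNE_H. LOC105371277, on the other side of IRX5, had them in DE (375 bp), aNE_T (749 bp) and aNE_M (430 bp) and in no other list. LSINCT5, between the IRX2 and IRX4 genes, had 831 bp in DE, 759 bp in aNE and 672 bp in aNE_T. It had 126 bp in aNE_H, 142 bp in pNE_T and 350 bp in pNE_H, and none in hPSC, pNE, aNE_M and pNE_M. The 3 genes were picked after their values were seen.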
